A study of Mus musculus with 3 samples.

Results

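The genes described here are 38 mouse genes of macrophages and of the osteoclast programme, listed by name and matched by gene symbol to the probe sets of a whole-transcript Affymetrix array. A probe set was matched for 36 of the 38, 1 each, among 19938 genes measured in all. Slc11a1, a metal ion transporter of phagosomes, and Spp1, which encodes osteopontin, were matched to none and were not analysed here.

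Total RNA of 3 mouse samples was hybridised, 1 array each. DiBA is the name of a cultured cell sample, in a series whose title speaks of brown adipocytes made by direct conversion. BA has brown adipose tissue as its labelled source and tissue, although its description calls it cultured cells. The fibroblasts are cultured mouse fibroblasts. No treatment, strain, sex or age is given in the sources used here for any of the 3 samples, and neither are the factors used for conversion or the number of animals behind an array. Values are intensities on a linear scale. Differences are on the log2(intensity + 1) scale. The threshold for a call in either direction was 2-fold, and the brighter of both arrays had to reach 69.2, the median of all probe sets. With 1 array per group there was no spread between replicates, so no p-value or error is given and no difference has a replicate check.

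The labels were first set against marker genes. All 8 adipocyte markers were at least 2-fold higher in DiBA and in BA than in fibroblasts, with median differences of 6.69 and 6.75 (log2). Of 8 fibroblast and matrix markers, 5 were lower and 1 higher in DiBA than in fibroblasts, and 6 were lower and 1 higher in BA. Skeletal muscle genes, 8 measured, were also all called higher than in fibroblasts, with medians of 4.13 in DiBA and 4.30 in BA. Of 10 endothelial genes, 8 were called higher in DiBA and 9 in BA. The source of muscle and endothelial signal in DiBA, labelled as cultured cells, was not tested. The array medians were 71.5 for DiBA, 67.7 for BA and 67.8 for fibroblasts. Intensities were identical to the last deposited digit on DiBA and BA for 47.3% of probe sets. The step that gave identical values is not stated in the sources used here, and a difference of 0 is no measure of precision.

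Macrophages are phagocytes of the myeloid lineage. Their survival depends on the receptor CSF1R and its ligands CSF1 and IL-34, and their lineage genes are switched on by the transcription factor PU.1. Adipose tissue holds resident macrophages that carry scavenger receptors and produce the complement protein C1q, as well as macrophages that take up and break down lipid around dying adipocytes. Osteoclasts arise from the same lineage under the cytokines CSF1 and RANKL and share genes such as Acp5 with lipid-loaded macrophages.

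Many macrophage genes were higher in DiBA and in BA than in fibroblasts, some of them from a dim fibroblast value. In DiBA, 22 of the 36 were called higher and 0 lower than in fibroblasts, with a median difference of 1.09. Of all 19938 genes, 8.54% were called higher and 7.67% lower in that comparison, and the median was 0. In BA, 20 of the 36 were higher and 2 lower than in fibroblasts, with a median of 1.05, against 9.51% and 9.59% of all genes and a median of 0. The intensity filter was passed by 31 of the 36 in each comparison. Among all genes past it, 14.7% were called higher and 13.2% lower in DiBA, and 16.3% and 16.4% in BA. The 38 genes were chosen with earlier results of these data known, so counts above these shares describe the list and are no test. With intensities under the median of all probe sets raised to it, 16 genes were higher and 0 lower in DiBA, and 15 were higher and 1 lower in BA. Of all 19938 genes, 1532 were higher and 1382 lower in DiBA on that scale, and 1743 higher and 1699 lower in BA. With a 75th percentile filter in place of the median, 12 were called in DiBA and 10 in BA. That filter called 14.1% of all genes in either direction in BA against fibroblasts. These comparisons share the fibroblast array. Because each array was made from bulk RNA, more cells of a type and more RNA per cell cannot be told apart.

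**Figure D1:**
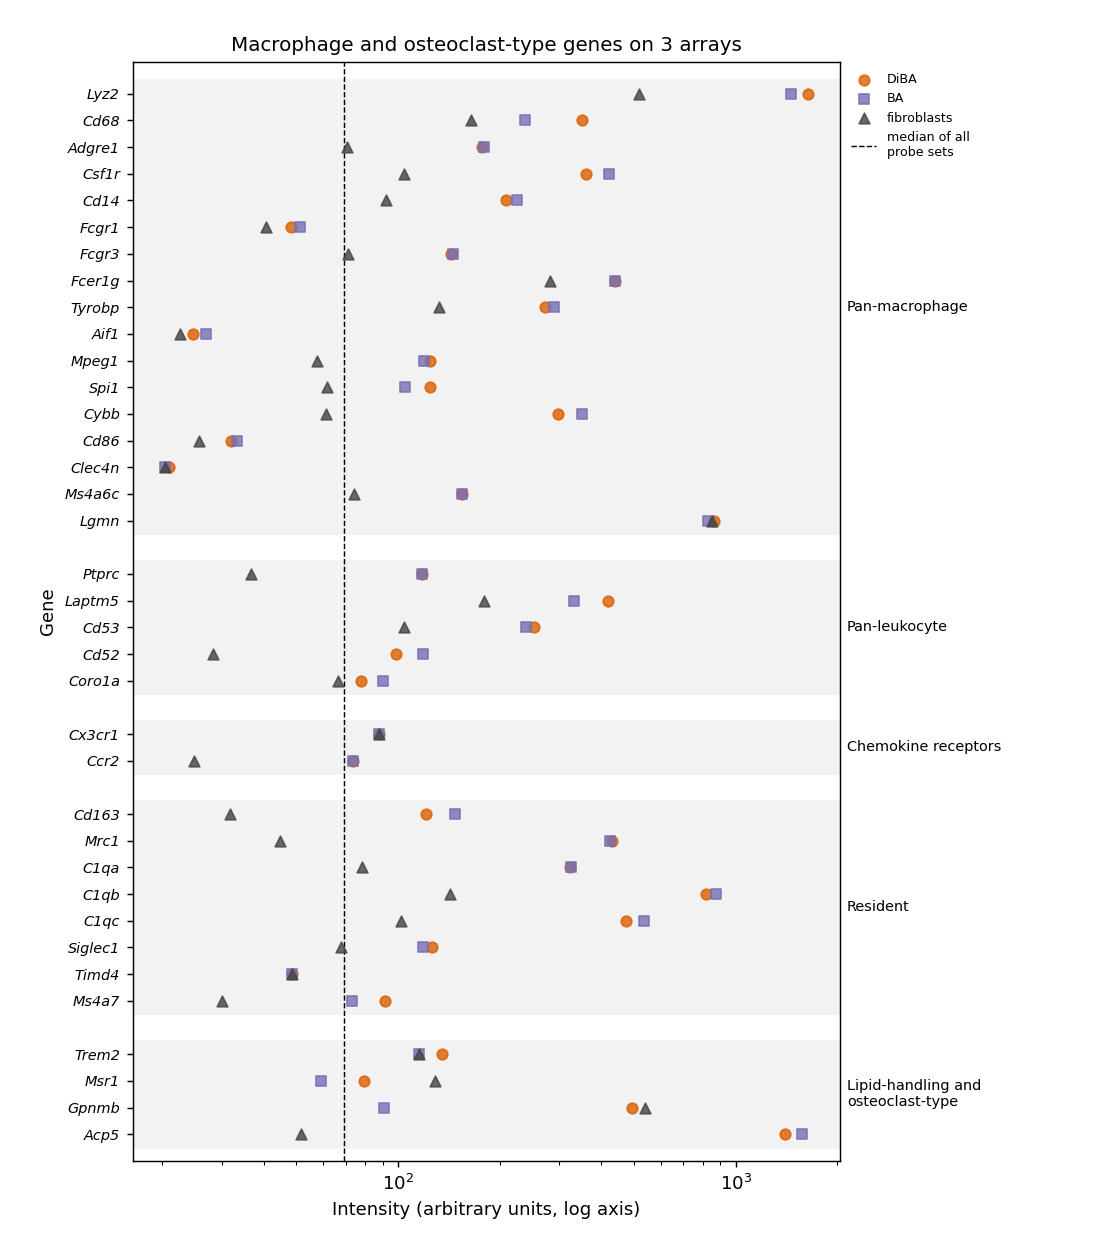
Intensity of each of the 36 genes (rows, grouped by role) on the DiBA, BA and fibroblast arrays, on a log axis, 1 array per sample. The dashed line is the median of all probe sets, 69.2. For most genes the DiBA and BA points lie close together and right of the fibroblast point, while Gpnmb has its DiBA point (493) beside the fibroblast point (540.3) and its BA point at 90.9.

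The pan-macrophage genes mark the lineage as a whole. Of 17 measured, 10 were at least 2-fold higher in DiBA and 9 in BA than in fibroblasts, with 0 lower in either, and their median differences were 1.03 and 1.02. Csf1r, the receptor for CSF1 and IL-34, had an intensity of 361 in DiBA and 422 in BA, against 104 in fibroblasts. It was thus 3.45-fold higher in DiBA and 4.04-fold higher in BA. Spi1, which encodes PU.1, had 124 in DiBA and 105 in BA, against 61.7 in fibroblasts. Its difference in DiBA lay just under the 2-fold threshold, and that in BA was 1.69-fold. The receptor was thus called in both comparisons and the transcription factor in neither.

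Cybb encodes the catalytic subunit of the phagocyte NADPH oxidase. It had 297 in DiBA and 351 in BA, against 61.3 in fibroblasts, differences of 4.79-fold and 5.65-fold, and of 4.25-fold and 5.01-fold with intensities under the median of all probe sets raised to it. These were the widest differences among the pan-macrophage genes. Lyz2, lysozyme, had 1635 in DiBA and 1463 in BA, against 519 in fibroblasts. Adgre1, the F4/80 antigen, had 177 in DiBA and 179 in BA, against 70.4 in fibroblasts. Cd14, a co-receptor for bacterial lipopolysaccharide, had 209 in DiBA and 224 in BA, against 92.4 in fibroblasts. For each of these 3 genes the DiBA and BA arrays lay 2.25-fold to 3.15-fold above the fibroblast array.

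Cd68, a glycoprotein of late endosomes and lysosomes, had 351 in DiBA and 239 in BA, against 165 in fibroblasts. It was 2.12-fold higher in DiBA and 1.45-fold in BA, so that only the DiBA difference was called. Mpeg1, which encodes the pore-forming protein perforin-2, had 124 in DiBA and 119.7 in BA, against 57.4 in fibroblasts. Its differences of 2.15-fold and 2.07-fold became 1.79-fold and 1.72-fold with low intensities raised to the median, and neither call remained. Ms4a6c, a membrane protein of the MS4A family, had the identical value of 155 in DiBA and in BA, against 74.0 in fibroblasts. Lgmn, a lysosomal protease, had 865 in DiBA and 827 in BA, against 849.7 in fibroblasts. Lgmn is also expressed outside macrophages and was at nearly 1 level on all 3 arrays.

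Fc receptors and their signalling adaptors bind immune complexes and pass the signal through tyrosine-based motifs. Fcgr3, a low-affinity IgG receptor, had 144 in DiBA and 145 in BA, against 71.0 in fibroblasts. Tyrobp, the adaptor DAP12 that also serves TREM2, had 272 in DiBA and 290.0 in BA, against 132 in fibroblasts. Fcer1g, the common Fc receptor gamma chain, had 439 in both DiBA and BA, against 282 in fibroblasts. Fcgr3 and Tyrobp thus lay barely past 2-fold and Fcer1g at 1.56-fold. When each array was centred on its median, the DiBA differences of Fcgr3, Tyrobp and Ms4a6c became 0.93, 0.96 and 0.98 (log2) and were no longer called. Fcgr3 and Ms4a6c have close relatives in the genome, and cross-hybridisation between them was not tested.

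Dim genes made up the rest of the pan-macrophage group. Fcgr1, the high-affinity IgG receptor, Aif1, the actin-binding protein IBA1, Cd86, a co-stimulatory ligand of T cells, and Clec4n, the fungal receptor dectin-2, stayed under 69.2 on all 3 arrays. Their intensities ran between 21.0 and 48.2 in DiBA and between 20.4 and 51.2 in BA, against 20.4 to 40.7 in fibroblasts. No difference of these 4 genes reached 1.29-fold.

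Pan-leukocyte genes are shared by macrophages and other white blood cells. Of 5 measured, 4 were at least 2-fold higher in DiBA and 3 in BA than in fibroblasts, with 0 lower. Ptprc, the CD45 phosphatase, had 117 in both DiBA and BA, against 36.6 in fibroblasts. Cd52, a small surface glycoprotein, had 98.5 in DiBA and 119 in BA, against 28.3 in fibroblasts. Both genes were dim in fibroblasts. With low intensities raised to the median, Ptprc was 1.69-fold higher in both, Cd52 was 1.42-fold higher in DiBA and 1.71-fold in BA, and neither was called.

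Cd53, a tetraspanin of white blood cells, had 253 in DiBA and 239 in BA, against 104 in fibroblasts. Laptm5, a lysosomal membrane protein of blood cells, had 418 in DiBA and 333 in BA, against 179.9 in fibroblasts, and was called in DiBA at 2.32-fold but not in BA at 1.85-fold. Coro1a, an actin-binding protein, had 77.9 in DiBA and 90.5 in BA, against 66.2 in fibroblasts. Its differences stayed under 1.5-fold.

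The chemokine receptor genes separate recruited monocytes and some tissue macrophages. Ccr2, the receptor for the monocyte chemokine CCL2, had 73.4 in both DiBA and BA, against 24.8 in fibroblasts. This 2.88-fold difference became 1.06-fold with low intensities raised to the median and was then not called. Cx3cr1, the fractalkine receptor, had the identical intensity of 88.0 on all 3 arrays.

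Resident macrophage genes are those of long-lived tissue macrophages. Of 8 measured, 6 passed the threshold as higher in DiBA and 6 in BA, with none lower, and with median differences from fibroblasts of 1.97 in DiBA and 2.11 in BA. With low intensities raised to the median, 4 were called in DiBA and 5 in BA, with medians of 1.45 and 1.56. Mrc1, the mannose receptor CD206 that clears glycoproteins, had 430.2 in DiBA and 424 in BA, against 44.7 in fibroblasts. It was 9.44-fold higher in DiBA and 9.30-fold in BA, and 6.15-fold and 6.05-fold with low intensities raised. Cd163, the scavenger receptor for haemoglobin bound to haptoglobin, had 121 in DiBA and 148 in BA, against 31.7 in fibroblasts. With low intensities raised, its difference was 1.74-fold in DiBA, no longer called, and 2.12-fold in BA.

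The genes C1qa, C1qb and C1qc encode the chains of complement C1q, which tags debris and apoptotic cells. They lie next to each other on chromosome 4 with 0 protein-coding genes between neighbours. C1qa had 324 in DiBA and 326 in BA, against 78.4 in fibroblasts. C1qb had 816 in DiBA and 873 in BA, against 143 in fibroblasts. C1qc had 474 in DiBA and 536 in BA, against 102 in fibroblasts. The genes of all 3 chains lay above the median of all probe sets on every array. Their differences ran from 4.09-fold to 5.68-fold in DiBA and from 4.12-fold to 6.07-fold in BA, and raising low intensities did not alter them.

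Ms4a7, another MS4A family member of macrophages, had 91.4 in DiBA and 72.8 in BA, against 30.1 in fibroblasts. It was called in both comparisons, and in neither with low intensities raised, at 1.32-fold and 1.05-fold. Siglec1, the sialic acid receptor CD169, had 126 in DiBA and 118 in BA, against 67.8 in fibroblasts, and its differences of 1.85-fold and 1.73-fold stayed under the threshold. Timd4, a receptor for phosphatidylserine on apoptotic cells, had the identical intensity of 48.7 on all 3 arrays, under the median. The resident group therefore held both the scavenger and C1q genes, which were called, and the dim Timd4, at which nothing could be told apart.

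**Figure D2:**
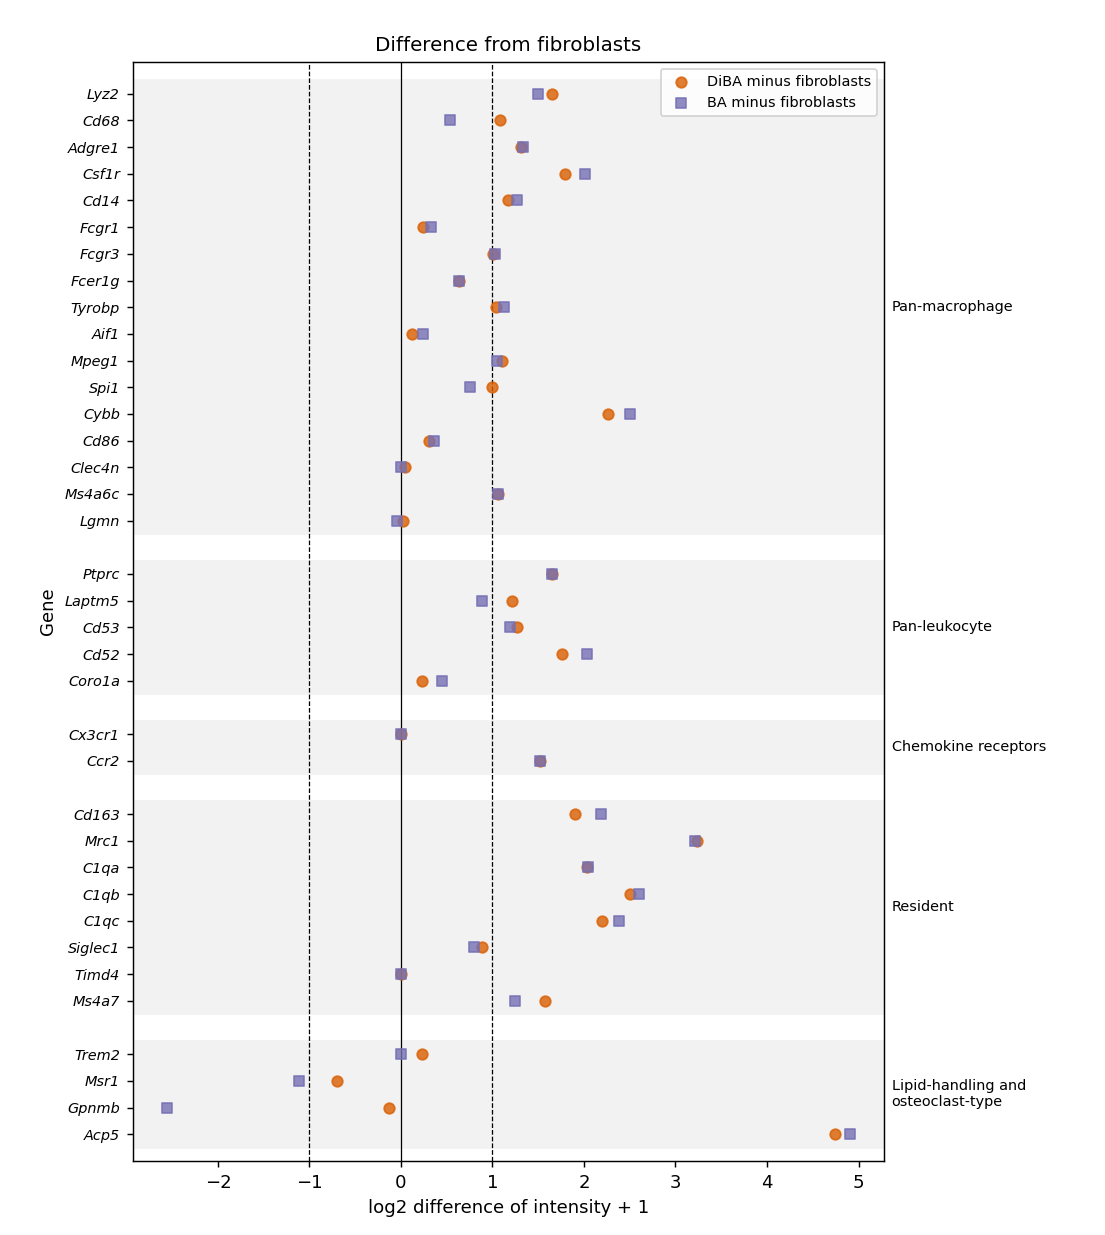
Difference of DiBA and of BA from the shared fibroblast array for each of the 36 genes, as log2 of intensity + 1, with solid line at 0 and dashed lines at 2-fold in either direction. Acp5 lies furthest right at 4.74 in DiBA and 4.91 in BA, Mrc1 follows at 3.24 and 3.22, and Gpnmb lies furthest left in BA at -2.56.

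The lipid-handling and osteoclast-type genes differed in direction among themselves. Of 4 measured, 1 was higher and 0 lower in DiBA than in fibroblasts, and 1 was higher and 2 lower in BA. Acp5, the tartrate-resistant acid phosphatase of osteoclasts and some macrophages, had 1399.8 in DiBA and 1572 in BA, against 51.5 in fibroblasts. At 26.7-fold in DiBA and 30.0-fold in BA it had the widest difference of all 36 genes, and it ranked 74th and 73rd from the highest among 19938 genes. With low intensities raised to the median the differences were 20.0-fold and 22.4-fold.

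Gpnmb, a transmembrane glycoprotein of lipid-loaded macrophages that osteoclasts and pigment cells also make, had 493 in DiBA and 90.9 in BA, against 540.3 in fibroblasts. It was 5.89-fold lower in BA than in fibroblasts, while DiBA lay within 1.10-fold of them. Msr1, the class A scavenger receptor for modified lipoproteins, had 79.2 in DiBA and 59.1 in BA, against 129 in fibroblasts. It was 2.16-fold lower in BA, or 1.85-fold and not called with low intensities raised, and 1.62-fold lower in DiBA. Trem2, a lipid-sensing receptor that signals through DAP12, had 135 in DiBA and 115 in BA, against 115 in fibroblasts. Within this group Acp5 was high in DiBA and BA, Gpnmb and Msr1 were lowest in BA, and Trem2 was nearly level.

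Promoter windows show what some of these genes share in sequence. They come from RefSeq (build GRCm38.p6) and cover the 250 bases before a transcription start. The table held 35 windows for 27 of the 38 genes. The letters GAGGAA on either strand, the core of a PU.1-type site, were in the windows of 13 of the 27 genes, against 25.9% of all 27025 genes with windows. These 13 include Slc11a1 and Spp1, which were not measured, and Aif1, Fcgr1 and Trem2, which were called in no comparison. The letters TCATGTG, the M-box bound by MITF and TFE proteins, were on either strand in 3 of the 27 (Acp5, C1qb and C1qc), against 3.72% of all genes. The related letters TCACGTG were in 1, Lgmn, against 3.58%. These motifs do not overlap one another in the windows below. A match describes letters and is no evidence of binding. The windows of Mrc1, C1qb, C1qc and 1 of 3 starts of Acp5 are shown, since these genes had wide differences and hold a match. Capitals mark a PU.1-type core or an M-box on either strand, where TTCCTC is the reverse complement of the core and CACATGA that of the M-box.
Mrc1, chr2:14229164-14229413, plus strand: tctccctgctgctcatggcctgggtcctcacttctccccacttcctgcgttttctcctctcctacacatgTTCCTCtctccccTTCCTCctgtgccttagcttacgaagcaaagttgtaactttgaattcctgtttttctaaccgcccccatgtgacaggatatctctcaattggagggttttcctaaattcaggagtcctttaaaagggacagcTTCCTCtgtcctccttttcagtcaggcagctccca
C1qb, chr4:136886201-136886450, minus strand: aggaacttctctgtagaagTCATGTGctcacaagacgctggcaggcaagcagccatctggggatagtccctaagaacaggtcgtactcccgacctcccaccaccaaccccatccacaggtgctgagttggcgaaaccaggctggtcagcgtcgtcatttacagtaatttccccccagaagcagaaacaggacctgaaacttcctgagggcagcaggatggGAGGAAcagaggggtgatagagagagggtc
C1qc, chr4:136892915-136893164, minus strand: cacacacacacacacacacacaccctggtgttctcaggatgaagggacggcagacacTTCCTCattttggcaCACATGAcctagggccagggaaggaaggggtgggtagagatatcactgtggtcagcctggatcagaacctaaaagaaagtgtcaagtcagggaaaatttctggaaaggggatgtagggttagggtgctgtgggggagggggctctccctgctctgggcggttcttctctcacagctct
Acp5, chr9:22130599-22130848, minus strand: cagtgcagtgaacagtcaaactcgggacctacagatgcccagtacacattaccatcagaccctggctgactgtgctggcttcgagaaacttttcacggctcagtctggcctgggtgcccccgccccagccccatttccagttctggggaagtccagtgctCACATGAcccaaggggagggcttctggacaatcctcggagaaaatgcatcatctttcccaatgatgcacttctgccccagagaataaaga
Mrc1 holds 3 matches to the PU.1-type core. The neighbouring genes C1qb and C1qc hold 1 such core and 1 M-box each. The Acp5 window holds 1 M-box and no PU.1-type core. The window of Gpnmb held none of the 3 motifs, nor did that of Cybb or Cd163.

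DiBA and BA were then set directly against each other. Among the 36 genes, 14 were higher, 16 lower and 6 identical in DiBA, with a median difference of 0. Gpnmb was the 1 gene called higher, and 0 were called lower, against 0.973% and 0% of all genes. A count of 1 in 36 is near that background. Gpnmb was 5.38-fold higher in DiBA than in BA (2.43, log2), which ranked 15th from the highest of 19938 genes. It was called under each of the 8 alternatives tried. All of them use the same pair of arrays, and several, such as no filter or a 1.5-fold threshold, could not undo a call.

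The other 35 genes lay between -0.29 (Cd163) and 0.55 (Cd68) on the log2 scale in DiBA minus BA. After Gpnmb and Cd68, the highest were Msr1 at 0.42, Laptm5 at 0.33 and Ms4a7 at 0.32. The lowest after Cd163 were Cd52 at -0.27, Cybb at -0.24 and Csf1r at -0.23. None of these reached 1.5-fold, and without replicates such small differences cannot be told from array-to-array error. The identical genes were Fcer1g, Ms4a6c, Ptprc, Ccr2, Cx3cr1 and Timd4.

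Lists of other cell types did not all move the same way in DiBA minus BA. Of the 8 fibroblast and matrix genes, 7 were higher in DiBA, with a median of 0.26 and summed intensities of 8480 in DiBA and 5613 in BA, against 24052 in fibroblasts. Fn1, the matrix protein fibronectin, was the 1 called gene among them, at 3.29-fold. It had 2799 in DiBA and 849.8 in BA, against 7920.5 in fibroblasts. Col1a1, a chain of type I collagen, had 854 in DiBA and 637 in BA, against 4780 in fibroblasts. Fn1 and Col1a1 were thus, like Gpnmb, highest in fibroblasts and lowest in BA, and the part of fibroblast-type RNA in the Gpnmb difference was not tested. All 10 endothelial genes were lower in DiBA, with a median of -0.27 and summed intensities of 3673 in DiBA and 4342 in BA, against 1213 in fibroblasts. All 8 skeletal muscle genes were lower in DiBA, with a median of -0.18 and sums of 13818 in DiBA and 15715 in BA, against 1132 in fibroblasts. The 36 macrophage and osteoclast-type genes summed to 10944 in DiBA and 10535 in BA, against 4558 in fibroblasts. Gpnmb gave 493 of the DiBA sum and 90.9 of the BA sum, which is most of the gap between them. Of the 36 genes, 14 were higher and 16 lower in DiBA. Of the endothelial genes, 8 were called higher in DiBA and 9 in BA than in fibroblasts, and 1, Flt1, a VEGF receptor, was below fibroblasts in both, with 315 in DiBA and 322 in BA, against 598 in fibroblasts. Cdh5, the endothelial cadherin, had 1027 in DiBA and 1188 in BA, against 32.6 in fibroblasts. All 8 muscle genes were called higher in both. The part of endothelial and muscle cells in the macrophage results was not tested. No endothelial or muscle gene was called between DiBA and BA, and the difference between lists was not tested. Before centring, the median of the 36 genes and that over all genes were both 0. Centring shifted every gene by the same amount, so both became -0.08.

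**Figure D3:**
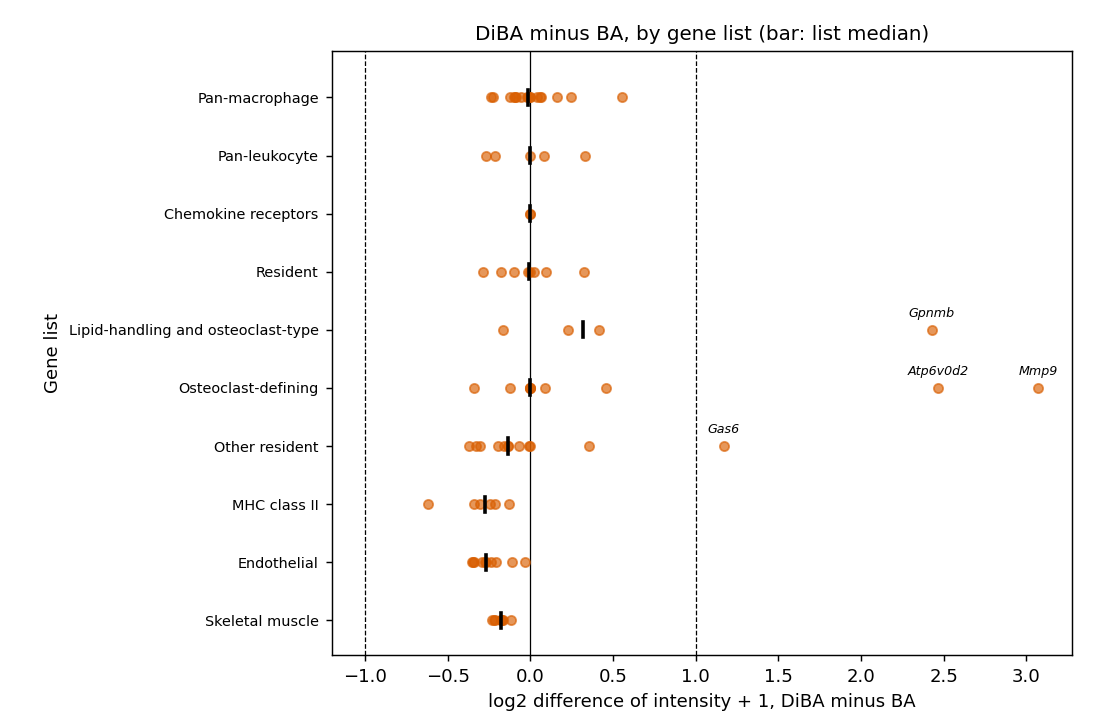
DiBA minus BA for each gene (points) of the 5 role groups and of 5 comparison lists, as log2 of intensity + 1, with list medians as black bars and dashed lines at 2-fold. Gpnmb at 2.43, Atp6v0d2 at 2.47 and Mmp9 at 3.07 stand apart on the right, and all points of the endothelial and skeletal muscle lists lie left of 0.

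Osteoclast-defining genes test the name of the osteoclast-type group. Of 10 measured, 2 were higher and 0 lower in DiBA than in fibroblasts, and 0 were called in BA. Of all genes, 8.54% were higher and 7.67% lower in DiBA, and 9.51% and 9.59% in BA. Between DiBA and BA, 2 of the 10 were higher and 0 lower in DiBA, against 0.973% and 0% of all genes. Nfatc1, Tnfrsf11a and Itgb3 were called in no comparison. Ocstamp and Dcstamp, needed for the fusion of osteoclast precursors, Calcr, the calcitonin receptor, and Oscar, an osteoclast immunoreceptor, stayed under 69.2 on all 3 arrays, with a highest value of 64.0. Osteoclast-type is therefore used here as the name of a gene list and not of a cell. Ctsk, the collagen-degrading cathepsin K, had 322 in DiBA and 234 in BA, against 449 in fibroblasts, where it was highest.

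The 2 called genes of that list were high in DiBA alone. Mmp9, a gelatinase secreted by osteoclasts and other cells, had 1351 in DiBA and 159.8 in BA, against 93.7 in fibroblasts. Atp6v0d2, a subunit of the vacuolar proton pump, had 208 in DiBA and 36.8 in BA, against 28.0 in fibroblasts, and was singled out after its values were seen. Unlike Gpnmb, both were lowest in fibroblasts. Mmp9 was 8.41-fold and Atp6v0d2 5.53-fold higher in DiBA than in BA. Atp6v0d2 was 2.97-fold higher with low intensities raised to the median.

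The pathway around CSF1R had opposite directions for the receptor and its main ligand. Csf1, the main ligand, had 256 in DiBA and 174 in BA, against 1144 in fibroblasts, which made it 4.45-fold lower in DiBA and 6.53-fold lower in BA. Il34, the other ligand, had 95.2 in DiBA and 109.5 in BA, against 72.9 in fibroblasts. Of the 6 genes of this list, 1 was higher and 1 lower in either comparison with fibroblasts, against the all-gene shares given above. The higher one was Csf2rb, the shared beta chain of the receptors for GM-CSF and related cytokines, with 91.8 in DiBA and 109.9 in BA, against 38.8 in fibroblasts. It was 1.32-fold higher in DiBA and 1.58-fold in BA, and not called, with low intensities raised to the median. Csf2ra, the alpha chain of the GM-CSF receptor, had the identical intensity of 234 on all 3 arrays. Il34 and Csf2rb were chosen after their values were seen.

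Of 12 signalling genes downstream of the Fc and DAP12 adaptors, 6 stayed under 69.2 on all arrays, 1 was higher in DiBA and 0 in BA, and 0 were lower. A count of 1 in 12 is near the 8.54% of all genes called higher in DiBA. The share in BA was 9.51%. The called gene, Nckap1l, a haematopoietic actin regulator, had 197 in DiBA and 162 in BA, against 80.6 in fibroblasts. It was 2.43-fold higher in DiBA and 1.99-fold in BA, just under the threshold. Hcls1, an actin-binding kinase substrate of blood cells, had 107 in DiBA and 122 in BA, against 60.8 in fibroblasts. Its differences were 1.75-fold and 1.99-fold.

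Transcription factors of macrophages numbered 9, of which 2 were higher and 1 lower in DiBA than in fibroblasts, as in BA. The shares of all genes were 8.54% higher and 7.67% lower in DiBA, and 9.51% and 9.59% in BA. Cebpa, which also drives adipocyte differentiation, had 1548 in DiBA and 1818 in BA, against 82.8 in fibroblasts. Runx1, a haematopoietic regulator, had 269 in DiBA and 99.4 in BA, against 825 in fibroblasts. The other called gene was Nr1h3, the oxysterol receptor LXR-alpha, with 454 in DiBA and 564 in BA, against 72.2 in fibroblasts. Cebpa and Nr1h3 were highest in BA and Runx1 in fibroblasts, and none of the 3 is confined to macrophages. Runx1 was 2.69-fold higher in DiBA than in BA, the 1 gene of this list called between them.

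A second list of resident macrophage genes, none of them among the 38, had 8 of 12 higher and 0 lower in DiBA than in fibroblasts, with a median of 1.56. In BA, 8 of them passed as higher and 1, Gas6, as lower, and the median was 1.75. Gas6, a ligand of the efferocytosis receptor MERTK that many cells secrete, had 1094 in DiBA and 485 in BA, against 1362 in fibroblasts. It was 2.25-fold higher in DiBA than in BA, the 1 gene of this list called between them. Cbr2, a carbonyl reductase, had 643 in DiBA and 504 in BA, against 421 in fibroblasts. Among genes chosen after their values were seen, F13a1, coagulation factor XIII, had 299 in DiBA and 314 in BA, against 27.1 in fibroblasts. Cd209f, a lectin of the DC-SIGN family, had 259 in DiBA and 296 in BA, against 18.6 in fibroblasts. Both were far under 69.2 in fibroblasts. F13a1 was 4.27-fold higher in DiBA and 4.49-fold in BA, and Cd209f 3.70-fold and 4.23-fold, with low intensities raised to the median. On that scale 7 genes of the list were higher in each comparison.

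Of 12 other Fc receptor, complement and MS4A genes, 2 were higher in DiBA and 1 in BA, with 0 lower. The shares of all genes were 8.54% higher and 7.67% lower in DiBA, and 9.51% and 9.59% in BA. The gene called in both was Fcgr2b, the inhibitory IgG receptor, with 231 in DiBA and 271 in BA, against 47.4 in fibroblasts. C3ar1, the receptor for complement fragment C3a, had 397 in DiBA and 317 in BA, against 257 in fibroblasts. Cfp, properdin, had 271 in DiBA and 241 in BA, against 127 in fibroblasts. Of 12 other lipid-associated macrophage genes, 5 were higher and 1 lower in DiBA, and 5 were higher and 2 lower in BA. That list includes Cd36, a fatty acid transporter, and Lpl, lipoprotein lipase, both abundant in adipocytes, with differences of 5.69 and 4.45 (log2) in DiBA and of 5.78 and 4.52 in BA. The lower genes were the tetraspanin gene Cd9 in both and, in BA, Lgals3. Lgals3 encodes galectin-3, a lectin of lipid-loaded macrophages and other cells, and had 583 in DiBA and 171 in BA, against 829 in fibroblasts. Like Gpnmb, it was lowest in BA, and it was 3.40-fold higher in DiBA than in BA. Nr1h3, Fcgr2b, Cd9 and Lgals3 were chosen after their values were seen. Of MHC class II genes, which present antigen, 4 of 6 were higher in DiBA and in BA.

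Markers of other white blood cells were set beside the macrophage genes. All 10 neutrophil, all 7 B cell and all 6 NK cell genes measured stayed under 69.2 on all arrays, as did 8 of 9 T cell genes. None was called in either comparison with fibroblasts. Cd3e, a subunit of the T cell receptor complex, had 68.0 in DiBA and 72.5 in BA, against 57.3 in fibroblasts. Signal of these lists could thus not be told from the dim range of the arrays.

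The mast cell, dendritic cell and monocyte lists each held 1 or 2 genes called higher. Of all genes, 8.54% were called higher and 7.67% lower in DiBA, and 9.51% and 9.59% in BA. Counts this small in short lists say little beside those shares. The medians of the 3 lists were 0.09, 0.08 and 0 in DiBA, and 0.03, 0.16 and 0 in BA. Of 10 mast cell and eosinophil genes, 2 were higher in DiBA and in BA, both proteases of mast cell granules. Cpa3, carboxypeptidase A3, had 243 in DiBA and 320.2 in BA, against 11.7 in fibroblasts. Mcpt4 had 132 in DiBA and 164 in BA, against 28.5 in fibroblasts. Both were dim in fibroblasts. With low intensities raised to the median, Cpa3 was 3.48-fold higher in DiBA and 4.58-fold in BA, and Mcpt4 was 1.90-fold higher in DiBA, no longer called, and 2.35-fold in BA. Of 8 dendritic cell genes, 1 was higher in both, the lectin gene Cd209a with 189.7 in DiBA and 247 in BA, against 37.3 in fibroblasts. Its differences were 2.72-fold in DiBA and 3.53-fold in BA with low intensities raised. Of 7 monocyte genes, 1 was higher in DiBA and in BA, Ace, the angiotensin-converting enzyme that endothelium also makes, with 417 in DiBA and 457 in BA, against 74.9 in fibroblasts. In the same list 1 gene was lower in DiBA and 2 in BA. Vcan, the matrix proteoglycan versican, was lower in both and highest on the fibroblast array, with 553 in DiBA and 87.6 in BA, against 2023 in fibroblasts.

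**Figure D4:**
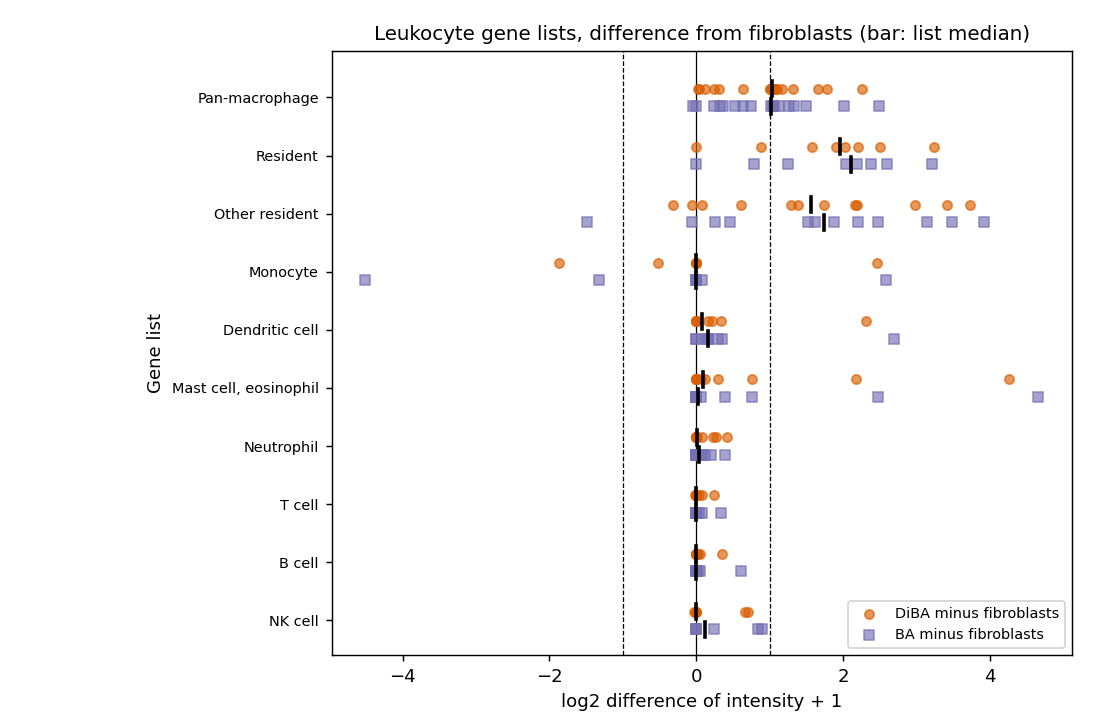
Difference of DiBA and of BA from fibroblasts for each gene of the pan-macrophage and resident groups and of 8 other white blood cell lists, as log2 of intensity + 1, with list medians as black bars and dashed lines at 2-fold. Resident medians lie at 1.97 in DiBA and 2.11 in BA, and all neutrophil, T cell, B cell and NK cell points lie within 2-fold of fibroblasts.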

How the data were processed

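Each of 3 samples was hybridised to its own single-colour array and formed a group of its own by its title. Values deposited by the authors are linear intensities, 1 for every probe set. The submitters' processing notes name Affymetrix Expression Console, without a version, and neither the summarization method nor the normalization is stated there. The array medians were close, at 71.5 for DiBA, 67.7 for BA and 67.8 for fibroblasts, so the values were taken as normalized. The number of arrays limits the precision.

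Of 28943 probe sets, 21789 had 1 gene symbol in the platform's probe table, 1621 had several and 5533 were not listed. Those with 1 symbol gave 19938 genes, with log2(intensity + 1) averaged over a gene's probe sets. The symbols of the described genes matched RefSeq (GRCm38.p6). A call needed a 2-fold difference, with the brighter array at or above 69.2. The calling step was tested on simulated data, with changes wider than the threshold placed only in genes bright in fibroblasts. That test did not cover changes of dim genes or changes near 2-fold. Python 3.11.15, pandas 2.3.3 and matplotlib 3.10.9 were used.

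The 38 genes and the 19 comparison lists were chosen with earlier results of these data known. Those of the 36 measured genes with an array at or above 69.2 are given with their values. For every comparison list, counts against fibroblasts are given. Between DiBA and BA, the called genes of the comparison lists are named. Of the 2 brightest genes of each comparison list, which the naming rule picks, no values are given for Zbtb46, H2-Aa, Cd74, Ckm, Acta1, Fabp4, Adipoq, Elane, S100a9, Cd4, Cd79b, Blk, Nkg7 and Prf1. The 8 alternatives covered centring, quantile normalization, filters, pseudocount, probe set choice, a floor and the threshold.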

Additional observations from a re-analysis of the deposited data

How the results depend on the processing

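No p-value could be had from 1 array per group, and leaving out a replicate was not possible. No paired analysis was possible because each group holds 1 sample. Without a filter, or with centred arrays, quantile normalization, a pseudocount of 16, the highest probe set per gene, a floor at the median or a 1.5-fold threshold, the counts of called genes among the 36 stayed within 1.5 times of the 22 in either comparison with fibroblasts and of the 1 between DiBA and BA. With a 75th percentile filter in place of the median, 12 were called in DiBA and 10 in BA, since fewer genes are bright enough. With intensities under 69.2 raised to it, the median difference from fibroblasts was 0.84 in DiBA and 0.77 in BA, since dim fibroblast values are raised. No called gene changed direction under these alternatives. Of 108 differences of single genes, 23 moved by 0.2 (log2) or more with the floor, 16 with a pseudocount of 16, and 0 with centring, quantile normalization or the highest probe set. Each gene had 1 probe set, so that last choice could not change them. Signal over background limits the 17 genes that lay under 69.2 in fibroblasts, whose folds are imprecise, as are those of comparison genes equally dim there.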
